A study of Homo sapiens with 12 samples.

Results

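The replication-independent histone variants are histones whose production is as a rule not limited to S phase and that can be placed into chromatin without DNA synthesis. The 10 genes described here were taken by gene symbol, as the row with the highest mean for each symbol, from a table of 22564 genes. They comprise the H2A variants H2AFX, H2AFZ, H2AFV, H2AFY, H2AFY2 and H2AFJ, the H3.3 genes H3F3A and H3F3B, and the linker histones H1F0 and H1FX. All 10 were in the table, each with a single row. RNA was taken from A549, an established human lung adenocarcinoma line, after transfection with siRNA against YTHDC1 (siYTHDC1, 6 libraries) or a scrambled siRNA (siSCR, 6 libraries), both at 40 nM for 48 to 72 h. YTHDC1 binds N6-methyladenosine, a methylated base of RNA, in the nucleus. Both groups share the line, the transfection and a library kit applied to total RNA after ribosomal RNA removal, so transcripts with and without a poly(A) tail could be sequenced.

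The value used for each gene was the authors' mean normalized count, a single number over all 12 libraries of both groups. It carries no spread between replicates, no library's depth can be read from it, and it holds no difference between siYTHDC1 and siSCR. What follows is therefore a description of levels in these cells, with no test, and a difference between members cannot be set against replicate error. YTHDC1 itself had an authors' mean of 232, and its knockdown was not examined here. The epithelial keratins KRT8 (27600) and KRT18 (14908) stood near the top of the table, and 5 of 5 listed epithelial genes were in it, the lowest being EPCAM at 58.4. Of 6 lung epithelial markers only FOXJ1 (4.43) was in the table, and the surfactant genes were not. Of 9 markers of blood, vessel and stromal cells 5 were in it, the highest being COL1A1 at 193.8.

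Most histone protein is made during S phase from clustered genes whose transcripts end in a conserved stem-loop in place of a poly(A) tail. The variants mostly differ in this: their genes tend to stand alone, many have introns, and their transcripts are as a rule polyadenylated. H2A.Z marks promoters and enhancers and is exchanged by the SRCAP and p400 complexes. H3.3 is deposited by HIRA at active genes and by ATRX with DAXX at heterochromatin. MacroH2A carries a large domain after its histone fold and is linked to repressed chromatin, and H2AX is phosphorylated around DNA breaks by ATM, ATR and the DNA-dependent protein kinase.

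H2AFX has a sequence feature of the other class of histone gene. The motif of the histone 3′ stem-loop was searched on the transcript strand after the stop codon of 1 canonical transcript per protein-coding gene (GRCh37). It occurred in 75 of 19778 genes (0.379%), in 46 of 46 replication-dependent histone genes that could be searched, and in 1 of the 10 variants, H2AFX. The match in H2AFX is shown in capitals because it is the feature that sets this gene apart from the other variants. The printed stretch, which includes bases on either side of the match, lies at chr11:118965601-118965630 on the minus strand. The match itself begins 49 bases after the stop codon, with 1024 bases of the canonical transcript still to follow it.

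H2AFX stem-loop: ccacaaaGGCCCTTTTAAGGGCCaccaccg

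The poly(A) signal AATAAA was found in the last 50 bases of the canonical transcript for 6 of 10 variants (H2AFZ, H2AFY2, H2AFJ, H3F3B, H1F0 and H1FX). The share was 63.7% of all protein-coding genes and 2 of 46 replication-dependent histone genes. H2AFX did not hold that signal there, nor did H2AFV, H2AFY and H3F3A, which lack the stem-loop motif. Other forms of the poly(A) signal were not searched. The deposited mean does not separate a short stem-loop form of H2AFX from a long polyadenylated one.

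The ends of the coding sequences were also read, for H2AFX, H2AFJ, H2AFZ and H2AFV. A serine codon followed by a glutamine codon is the kind of site that the DNA damage kinases phosphorylate in H2AX. These are the last 30 coding bases before the stop codon, with such a codon pair in capitals. They lie at chr11:118965676-118965705 on the minus strand for H2AFX, chr12:14927762-14927791 on the plus strand for H2AFJ, and, on the minus strand, chr4:100869622-100869651 for H2AFZ and chr7:44874103-44874132 for H2AFV.

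H2AFX: aagaaggccacccaggccTCCCAGgagtac
H2AFJ: aagacggagAGTCAGaagacgaagagcaaa
H2AFZ: attgggaagaaaggacaacagaagactgtc
H2AFV: attggaaagaagggacagcagaaaactgct

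The pair was present at the end of H2AFX and H2AFJ and absent from the end of both H2A.Z genes. Each of the 4 coding sequences held 1 such pair in all, that of the H2A.Z genes lying further inside. H2AFY and H2AFY2 were not searched. How often other genes end with such a pair was not counted. A codon pair is a description of the sequence, and these data do not measure the protein or its phosphorylation.

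In the authors' means the 10 variants ranged from 329 to 3563, with a median of 942, against a median of 65.8 over the 22564 genes. All 10 lay above that median, between the 68.7th percentile (H2AFJ) and the 97.9th (H3F3B). Together they made up 0.133% of the summed means of the table. H2AFJ and H2AFY2 ranked 7052nd and 6524th of all genes.

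**Figure D1:**
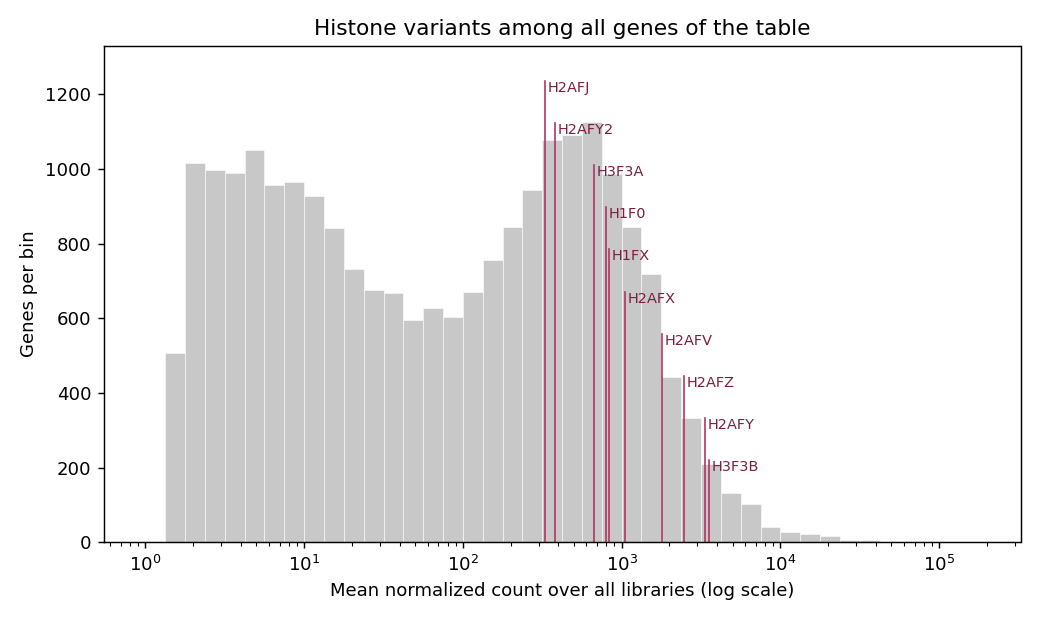
Number of genes per bin (y axis) for 22564 genes, with the authors' mean normalized count of the 12 libraries on a log-scaled x axis, with a line for each of the 10 histone variants. The variants sit in the upper hump of the distribution, from H2AFJ at 329 to H3F3B at 3563.

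A longer transcript yields more reads, so the undivided means above place a gene in the table, and levels of different genes were compared as the mean normalized count per kb, with the union of annotated exons as the length unless another is named. On that scale the variants ran from 1082 for H2AFZ to 25.2 for H2AFY2, a span of 42.9-fold, which was 13.4-fold with the longest transcript, 14.5-fold with the canonical one and 25.8-fold per coding length. The median of the 10 was 308 per kb, against 32.2 per kb over all genes with a length and 58.6 over protein-coding genes, and 9 of 10 lay above the first of these. The order was H2AFZ, H2AFX, H3F3B, H1FX, H1F0, H2AFV, H2AFY, H3F3A, H2AFJ and H2AFY2. Neighbours in it were often close: H2AFX stood 1.14 times above H3F3B, H3F3B 1.06 times above H1FX, and H2AFY 1.13 times above H3F3A. With no replicate values it cannot be said whether these neighbours differ beyond their spread. The widest step was the last, with H2AFJ 3.91 times above H2AFY2, but this step was 1.09 times with the longest transcript.

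The length chosen moved several members. H2AFY had 17013 bases of exon in the union of its transcripts but 1917 in its canonical one, and its level per kb was 196.5 with the former and 1744 with the latter. It stood seventh in the first order and second in the other. H2AFZ kept the first place with the union, the longest transcript and the canonical transcript, and was second per coding length, behind H3F3B. H2AFY2 was last with each of these 4 lengths. Without division by length the lowest was H2AFJ.

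**Figure D2:**
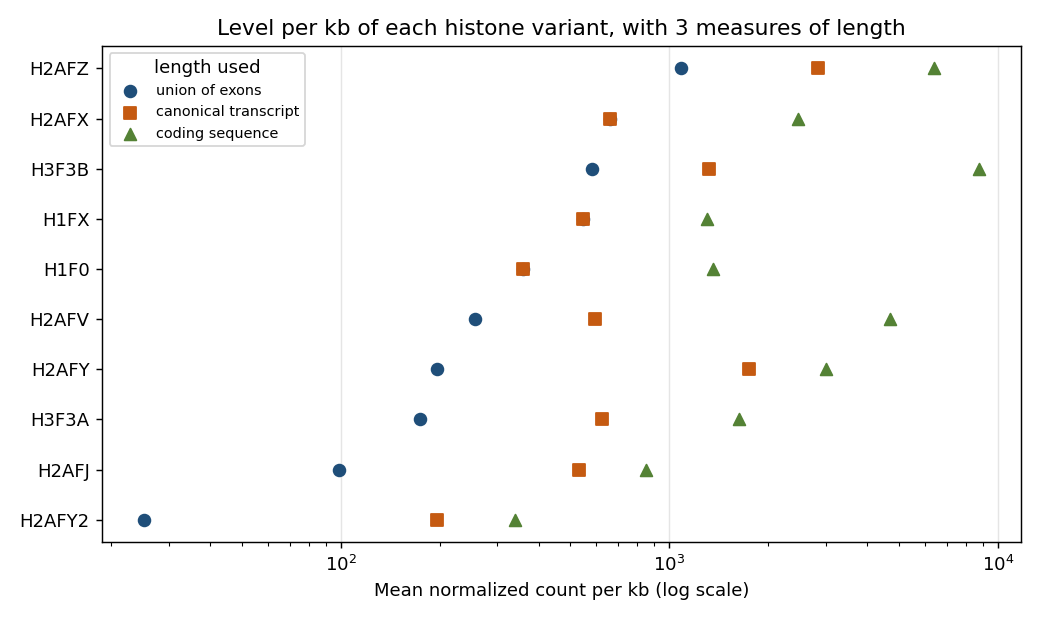
Mean normalized count per kb (x axis, log scale) of each histone variant (y axis, in the order by union of exons), with the union of exons, the canonical transcript or the coding sequence as the length. H2AFY moves from 196.5 to 1744 per kb between the first 2 lengths, while H2AFX, H1F0 and H1FX keep 1 value because their union and canonical transcript have the same length.

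H2AFX (ENSG00000188486.3, chromosome 11, 118964584 to 118966175, minus strand, 1 exon) had an authors' mean of 1054, at the 87.8th percentile. Per kb it reached 662, second among the variants, with no overlapping gene in the reference annotation. Genes that act on H2AX were listed beside it, 14 of 15 being in the table. Their median was 73.1 per kb, and 2 of the 14 exceeded the median of the variants. The highest were PRKDC, the catalytic subunit of the DNA-dependent protein kinase (528 per kb), and the phosphatase subunits PPP4C (344.7) and PPP2CA (289). The lowest was MDC1, the reader of phosphorylated H2AX, at 21.7 per kb.

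H2A.Z is encoded by H2AFZ and H2AFV. H2AFZ (ENSG00000164032.7, chromosome 4, 100869243 to 100871512, minus strand, 5 exons) had an authors' mean of 2457 and H2AFV (ENSG00000105968.14, chromosome 7, 44866390 to 44887686, minus strand, 5 exons) of 1797. Their coding sequences have 384 bases each and are identical at 80.5% of them, and 64 of the 75 differences fall on the third base of a codon. Per kb of exon H2AFZ gave 80.8% of the sum of both, and H2AFV gave 19.2%. Per coding length the share of H2AFZ was 57.8%, the same as without division, since both coding lengths are equal. Reads from untranslated parts, long in H2AFV, remain in that mean. H2AFZ was the higher gene of the pair with each length, by 1.37 to 4.78 times.

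All 14 listed genes of H2A.Z exchange were in the table, with a median of 169.8 per kb. RUVBL2, an ATPase of the exchange complexes, was highest at 498, followed by the nucleosome assembly proteins NAP1L1 (457) and NAP1L4 (399.8). DMAP1, a subunit of the p400 complex, was lowest at 45.5. With the union of exons as the length, H2AFZ, at 1082, lay above each of them per kb. These genes were not compared on another length. Without division NAP1L1, with 17059 bases of exon in its union, had an authors' mean of 7792, above the 2457 of H2AFZ.

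MacroH2A is encoded by H2AFY and H2AFY2. H2AFY (ENSG00000113648.12, chromosome 5, 134670071 to 134735604, minus strand, 9 exons) had an authors' mean of 3343, and H2AFY2 (ENSG00000099284.9, chromosome 10, 71812300 to 71872038, plus strand, 9 exons) of 378. Both have 1116 coding bases, with 69.7% identity in an alignment that needed gaps. H2AFY gave 88.6% of the pair per kb of exon and 89.8% per coding length, so H2AFY2 stood 7.78 and 8.83 times lower. With the longest transcript as the length the share of H2AFY was 75.7%. Exons of H2AFY2 share 986 bases with AIFM2 on the opposite strand, a gene with an authors' mean of 747, and 27.7% of the exon bases of H2AFY overlap the antisense PITX1-AS1, with a mean of 58.9. The methods of the study name a stranded library kit. Whether reads were counted by strand was not given in the sources used here, and a part of these neighbours in the counts was not tested.

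H2AFJ (ENSG00000246705.3, chromosome 12, 14927339 to 14930936, plus strand) has 1 exon in its canonical transcript and is close to canonical H2A except at its end. It had the lowest undivided authors' mean of the 10, 329. Its coding sequence was identical to that of H2AFX in 75.3% of aligned columns, while H2AFX and H2AFZ were identical in 53.5%. Gap columns, 42 and 95, are counted in these alignments. Per kb H2AFJ stood at 98.8, next to last, and at 531 with its short canonical transcript of 620 bases.

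H3.3 is encoded as the same protein by H3F3A and H3F3B. H3F3B (ENSG00000132475.4, chromosome 17, 73772515 to 73781974, minus strand, 4 exons) had the highest undivided authors' mean of the variants, 3563, and H3F3A (ENSG00000163041.5, chromosome 1, 226249552 to 226259720, plus strand, 4 exons) had 666. H3F3B gave 76.9% of the pair per kb of exon, a 3.33-fold difference. The share of H3F3B was 67.9% with canonical transcripts and 84.2% per coding length.

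The genes differ at 88 of 408 coding bases, in 79 of 136 codons, and 77 of the differences fall on the third base. A processed pseudogene of H3F3A, H3F3AP4 (ENSG00000235655.2, chromosome 2, 175584636 to 175585046, plus strand), matches the coding sequence of H3F3A in 100% of its 408 bases. The 30-base stretch of the coding sequence in which the H3.3 genes differ most, bases 208 to 237, is shown for all 3 genes because it tells which of them reads can be told apart. Capitals mark the 10 bases at which H3F3B differs from the other genes. The stretch lies at chr1:226253436-226253465 (plus strand), chr17:73774936-73774965 (minus strand) and chr2:175584843-175584872 (plus strand).

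H3F3A: CgTCtggtgCgAgaAatTgcTcaggaCttT
H3F3B: AgGTtggtgAgGgaGatCgcGcaggaTttC
H3F3AP4: CgTCtggtgCgAgaAatTgcTcaggaCttT

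H3F3A and its pseudogene are the same in this stretch, and H3F3B is not. H3F3AP4 had an authors' mean of 219, which is 32.9% of that of H3F3A, and H3F3AP6, another copy, had 3.51. When the means of both copies were added to H3F3A, its share of the pair was 28.6% in place of 23.1%, and H3F3B remained 2.50 times higher.

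The canonical transcript of each variant was then searched in windows against the whole of GRCh37, on both strands, for exact matches outside its own gene. Of the 921 windows of 150 bases in H3F3A, 759 (82.4%) occurred elsewhere, at 4 places, and all 759 occurred at the place of H3F3AP4. For H2AFV it was 4 of 2877 windows (0.139%), and for the other 8 variants 0. With windows of 75 bases the shares were 91.3% for H3F3A, 5.09% for H3F3B, 4.40% for H2AFV and 2.15% for H2AFZ, with 0 for the other 6. A read that matches several places can be dropped or placed at 1 of them, and how this was set was not given in the sources used here. The mean of H3F3A, and its place in the order above, is therefore uncertain, and the size of this effect was not tested.

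**Figure D3:**
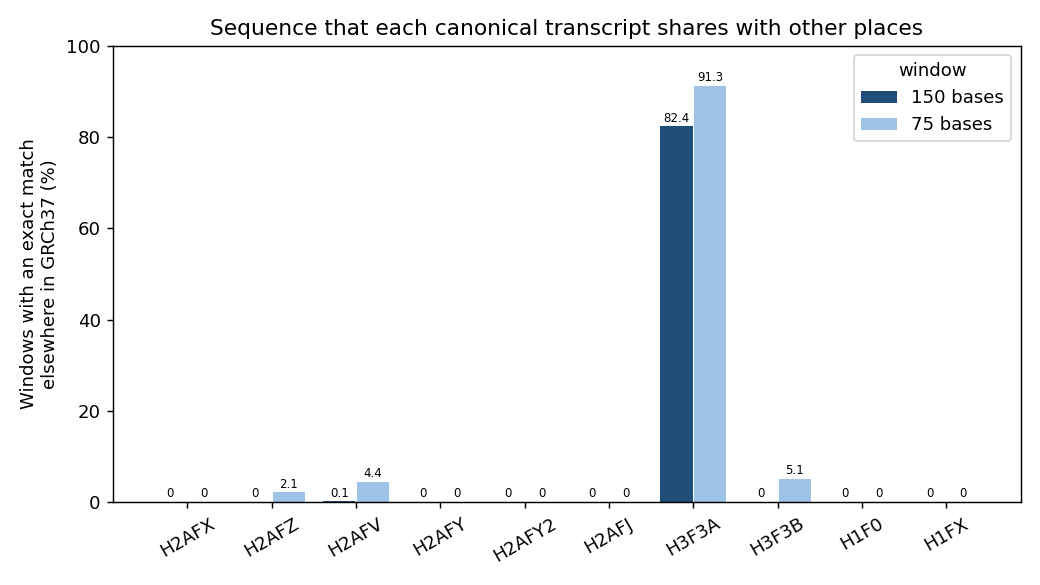
Percent of windows of each variant's canonical transcript with an exact match elsewhere in GRCh37 (y axis), for windows of 150 and 75 bases, by gene (x axis). H3F3A stands apart at 82.4% and 91.3%, and the other 9 variants are at 5.09% or lower.

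The 9 listed genes of H3.3 deposition were all in the table, with a median of 123 per kb, and none exceeded the median of the variants. The chromatin protein DEK was highest at 302, followed by the chaperone ASF1B (230.5) and the HIRA partner UBN1 (153.5). HIRA was lowest at 3.45 per kb, from an authors' mean of 14.8. Overlapping genes and shared sequence were searched for the variants only, so neither was examined for HIRA. The table holds 1 value for each, so it is not known how they vary between libraries.

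The linker histones bind DNA at the entry and exit of the nucleosome. H1F0 (ENSG00000189060.4, chromosome 22, 38201236 to 38203439, plus strand, 1 exon), which accumulates in cells that leave the cycle, had an authors' mean of 792. H1FX (ENSG00000184897.4, chromosome 3, 129033614 to 129035129, minus strand, 1 exon) had 830. Per kb of exon H1FX stood 1.52 times higher, with 548 against 359, while per coding length H1F0 was higher by 1.05 times, so their order depends on the length. The coding sequences share 50.6% of aligned columns, where 171 of the 696 columns are gaps. Of the exon bases of H1FX, 22.8% overlap H1FX-AS1, an antisense RNA with an authors' mean of 61.1. A part of this RNA in the counts of H1FX was not tested either.

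The replication-dependent histones served as the other class. The table held 55 symbols of this class, a few pseudogenes included, and 52 could be given a length. Per kb of exon their median was 677, against 308 for the variants, and their range from 2.99 to 5658 was wider. The order of the medians rested on the length. It was the same with the canonical transcript (1063 against 608) and turned per coding length, with 1721 for the 46 genes with a coding sequence against 2045 for the variants. Of the 52, 33 exceeded the median of the variants. HIST1H3B (5658 per kb), the linker histone HIST1H1C (4575) and HIST1H2BK (3407) were highest, and the testis linker histone HIST1H1T was lowest. Many of these genes have near-identical copies, so single values are uncertain. Per kb of exon the 7 linker histone genes of this class, 2 pseudogenes among them, summed to 10862, while H1F0 and H1FX together reached 907. The 10 H3 genes of the class summed to 10960 and the H3.3 pair to 755, while per coding length the sums were 16010 and 10366. The 10 H2A genes summed to 10318 and the H2A.Z pair to 1339, and per coding length to 15303 and 11077. For the linker histones the sums per coding length were 12644 over the 5 genes with a coding sequence and 2660 for H1F0 with H1FX. How far the variants stood below the other class thus depended on the length. Division by coding length keeps the reads of untranslated parts in the mean. These parts are long in some variants, H3F3B having 2705 bases in its canonical transcript and 408 of coding sequence. How much this shapes the values per coding length was not tested.

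Among other variants, 2 of the 12 listed genes were in the table. CENPA, the H3 variant of centromeres, had 249.7 per kb, and HIST1H1T, also in the list above, had 2.99. The replication-coupled chaperones (7 of 7 in the table) had a median of 177 per kb, led by the FACT subunits SSRP1 (537) and SUPT16H (499) and by MCM2 (329), with the CAF-1 subunit CHAF1B lowest at 76.4. Genes of histone mRNA 3′ end processing (10 of 10) had a median of 128 per kb. They were led by SLBP, which binds the stem-loop shown above (414.6), and by the processing factors CPSF3 (267.5) and SYMPK (265.8). LSM11 of the U7 snRNP was lowest at 36.9.

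**Figure D4:**
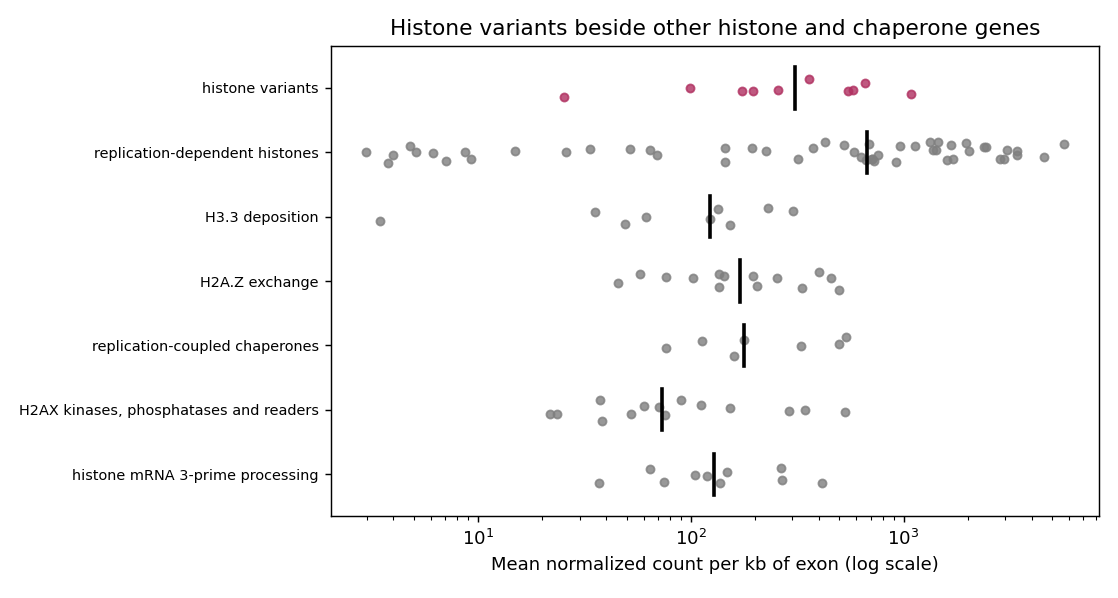
Mean normalized count per kb of exon (x axis, log scale) for each gene of 7 lists (y axis), with the median as a black bar and the histone variants in red. On this length the variants have a median of 308 per kb, below the 677 of the replication-dependent histones (per coding length that order turns) and above the medians of the chaperone, kinase and processing lists, which lie between 73.1 and 177. Those lists were not compared on another length. Without division the replication-coupled chaperones had a median of 1332, above the 942 of the variants, and the rest of those lists had medians from 738 to 916.

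Promoters of 9 of the 10 variants, all but H1F0, were found in RefSeq (GRCh38.p14), as 250 bases before to 50 after each annotated start. There were 4 starts for H3F3A, 2 for H2AFY and 1 for the other genes found. The linker histone gene H1F0 had no entry, so none of the motifs below was searched for it. Counting both strands, CCAAT was present for 7 variants (39.7% of all genes), TATAAA for 4 (14.0%) and GGGCGG for 5 (48.3%). The genes with TATAAA were H2AFX, H2AFZ, H3F3B and H1FX. The linker histone element AAACACA was present for H3F3A (6.94% of all genes) and TGACGTCA for none of the 9 (2.25%). A match is a description of the letters and was not related to the levels.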

How the data were processed

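Total RNA-seq of A549 cells had been done in 6 siYTHDC1 and 6 siSCR libraries. Per the labels, the authors aligned reads to hg19 with STAR, counted them per gene with HTSeq and ran DESeq2, and the methods of the study name an older GENCODE release for the counting. The deposited table has 1 row per gene. Its signal column, the mean normalized count over all 12 libraries, is the only deposited value used here. Its 5 other columns hold the authors' own comparison of both groups (fold change, error, statistic and p-values) and were not used, so neither a test nor an error is given. The test planned for counts per library was not run, because the values used hold none.

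Exon lengths, positions and sequences came from GRCh37 with GENCODE release 44 mapped back to it. Of the gene IDs, 21798 (96.6%) matched after removal of version numbers, and 24 more histone genes were matched by an older symbol through RefSeq. Exon models can differ from those the authors counted on. Levels per kb are the mean divided by the union of exons, times 1000 bases. Exon numbers given with the genes are those of the canonical transcript. Window matches, lengths and identities were tested on simulated data. The members and lists were chosen with earlier results of these data known. Named were all members and, of each other list, at most the 3 highest genes and the lowest per kb, besides copies at 1% or more of their parent. H3F3AP6, below that limit, the markers and the overlapping genes were named after their values were seen. Python 3.11.15, numpy 2.4.6, pandas 2.3.3, numba 0.67.0, biopython 1.88 and matplotlib 3.10.9 were used.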

Additional observations from a re-analysis of the deposited data

How the results depend on the processing

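The means themselves did not change when all rows of a symbol were summed, since each symbol had 1 row. All 10 variants stayed above the median when ranked among genes with a mean of at least 10 or among protein-coding genes, the lowest being H2AFJ at percentiles 56.2 and 51.2. The order per kb was less firm. Against the union of exons, 6 members changed place with the longest transcript, 8 with the coding length, 9 without division by length and 6 with the canonical transcript (added after the data were seen). For the pairs, the share of H2AFZ was 73.4% with the longest transcript and 57.8% per coding length, against 80.8%. The share of H2AFY was 75.7% with the longest transcript, against 88.6%. The share of H3F3A was 15.8% per coding length and 32.1% with the canonical transcript, against 23.1%. H1F0 gave 39.6% of its pair per kb of exon and 51.2% per coding length, which turned the order of that pair. The medians of the variants and of the replication-dependent histones also changed order per coding length (2045 and 1721, against 308 and 677). For the variants the construction of the alternative, another length for the same mean, accounts for the change. For the replication-dependent histones the set of genes also changed, from 52 with a union of exons to 46 with a coding sequence. No paired analysis was possible because the values used are a mean over all libraries and carry no replicate numbers. The planned edgeR test, the DESeq2 fit named as its alternative and the fit with the replicate number as a block were not run for the same reason. No depth per library is known from the values used, so how far depth limits the results, such as which genes were in the table, was not tested.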
